A study of Brassica napus with 6 samples.

Results

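The copies described here are the Brassica napus genes whose Arabidopsis description names a small-subunit ribosomal protein (a name of the form "ribosomal protein S" followed by a number) and does not name a kinase. They also had to reach 1 TPM (a transcript level scaled by length and to a common total per leaf) in at least 2 of 4 leaves. There were 363 such copies among 44247 genes that passed the same limit, and they match 74 Arabidopsis gene codes, so that several copies share a code and are called sisters below. The levels in these leaves therefore chose the members. The leaves were single, very young leaves of a hairy doubled haploid line, DH6-47, and of its near-isogenic glabrous partner, DH6-110. Replicates 1 and 3 of each line were used, so every comparison set 2 hairy against 2 glabrous leaves of untreated plants, each line being a single genotype. Poly-A RNA was sequenced, and because a whole leaf was used, fewer cells of a type and less RNA per cell cannot be told apart.

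The small ribosomal subunit reads the messenger RNA. Plant cells build a 40S subunit in the nucleolus for the cytosol, and smaller bacterial-type subunits for plastids and for mitochondria, most of whose proteins are encoded in the nucleus and imported. Cytosolic ribosomal proteins are needed in near-equal numbers and are made in large amounts in young, growing leaves. RPS6 is the best known target of S6 kinase, which the TOR kinase activates when nutrients allow growth. Brassica napus joined an A genome (from Brassica rapa) and a C genome (from Brassica oleracea), each already triplicated relative to Arabidopsis, so most Arabidopsis ribosomal protein genes have several sisters.

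By description and code, 229 copies of 38 codes encode proteins of the cytosolic ribosome, 46 copies of 12 codes those of the plastid and 47 copies of 13 codes those of the mitochondrion. The other 41 copies, of 11 codes, are not ribosomal proteins although their description carries the name. They include LOS1, which is translation elongation factor eEF2, the subunits of elongation factor eEF1B, MEE5, a GTPase of the spliceosome, and NSA2 and IMP3, which act in ribosome assembly. The wording of the descriptions also misses some proteins of the small subunit. By subgenome, 177 copies are on A chromosomes, 166 on C chromosomes and 20 on unplaced sequences.

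A further 118 copies with the description did not reach the limit, and 101 of them were listed at 0 in every leaf. Just inside it lay an EFL1-like copy (BnaA01g022400.4DH), whose second-highest leaf had 1.05 TPM, and an RPS19 copy (BnaC05g083770.4DH) at 1.23 TPM. Just outside lay an RPS7 copy (BnaC05g083420.4DH) at 0.674 TPM and a copy of mitochondrial rps7 (BnaS00072g0140.4DH) at 0.658 TPM. Of the 363 copies that passed, 331 had 1 TPM or more in all leaves. In both hairy leaves 4 lay under 1 TPM, and in both glabrous leaves 12 did. These copies could have passed only through the line in which they were seen.

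Small-subunit copies were among the more abundant transcripts of the leaf. Their median level was 104.9 TPM, against 7.786 TPM over all genes that passed, and by compartment it was 159.1 TPM for the cytosol, 83.61 TPM for the plastid and 18.7 TPM for the mitochondrion. Among the 68 codes with at least 2 passing copies, the median number of sisters was 4 (2 to 16), and the leading sister held a median of 35.69% of its code's TPM. In cytosolic codes the leading share was 26.86%, and in mitochondrial codes it was 53.94%. RPS14 (AT3G11510) had the most sisters, 16. The same sister led in all leaves in 35 of the 68 codes, and in 17 codes 1 sister led in both hairy leaves and a different one in both glabrous leaves.

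By the strictest rule, 4 copies were seen in one line only, with at least 1 TPM in both of its leaves and under 0.1 TPM in both leaves of the other. Over all genes that passed, 3.06% met that rule. Since the rule used the contrast between the lines, these copies are described without a test. The mitochondrial S18 copy on C08 (BnaC08g078870.4DH) had 6.28 and 11.6 TPM in the hairy leaves, against 0.0865 and 0 TPM in the glabrous leaves. The MEE5 copy on the same chromosome (BnaC08g079390.4DH) had 16.8 and 10.9 TPM in the hairy leaves, against 0 and 0.0944 TPM in the glabrous leaves. Also seen in hairy leaves only was a minor RPS16 copy on C09 (BnaC09g076610.4DH), with 3.70 and 4.57 TPM in hairy leaves and 0 TPM in both glabrous leaves. The copy seen in the glabrous line only, an RPS26 copy on C03 (BnaC03g115460.4DH), was listed at 0 in both hairy leaves and had 1.82 and 3.73 TPM in the glabrous leaves. Their weight within the code differed: the S18 copy averaged 14.01% of its code's TPM in the hairy leaves and the MEE5 copy 20.1%, whereas the RPS16 copy held 0.233% of its code in hairy leaves and the RPS26 copy 1.89% in glabrous leaves.

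The sisters of the S18, MEE5 and RPS26 copies had no such gap. The other 3 mitochondrial S18 sisters lay between -0.90 and 0.28 on the log2 scale, and the A09 sister BnaA09g098630.4DH had 9.63 and 6.42 TPM in hairy leaves against 20.8 and 11.6 TPM in glabrous leaves. The other 3 MEE5 sisters lay between -0.02 and 0.26, and the sum of MEE5 was 89.9 and 50.7 TPM in hairy leaves and 39.8 and 71.0 TPM in glabrous leaves, and overlapped between the lines. The other 4 sisters of that RPS26 code (AT2G40510) lay between -0.36 and 1.11. The RPS16 code has 10 other sisters, among them 2 of the restricted copies described next.

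A limit of 0.1 TPM leaves out abundant copies that keep a trace of signal in the other line. Reads of near-identical sisters may be placed on either copy, but the source of the trace was not tested. A second rule, added after the values had been seen, took copies with a mean of at least 5 TPM in one line and under 5% of it in the other. It found 25 restricted copies, 16 restricted to the hairy and 9 to the glabrous line, in 20 codes. That was 6.89% of the 363 copies, and over all genes that passed it was 3.49% (1.5% hairy and 1.99% glabrous). The small-subunit copies stand at higher levels than most genes, so the count was repeated among copies with a mean of at least 20 TPM: 21 of 302 small-subunit copies (6.95%) met it, against 2.55% of all such genes. Of those 302 copies 35 (11.6%) were called by the limma fit described further on, against 9.1% of all such genes. A lower limit of 20 TPM does not match the sets for level. Restricted copies in the same chromosome run, as on A01 and C08 below, are also not independent. The gaps were wide, and in the plot of the restricted copies' levels the points of the lines lie far apart.

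**Figure D1:**
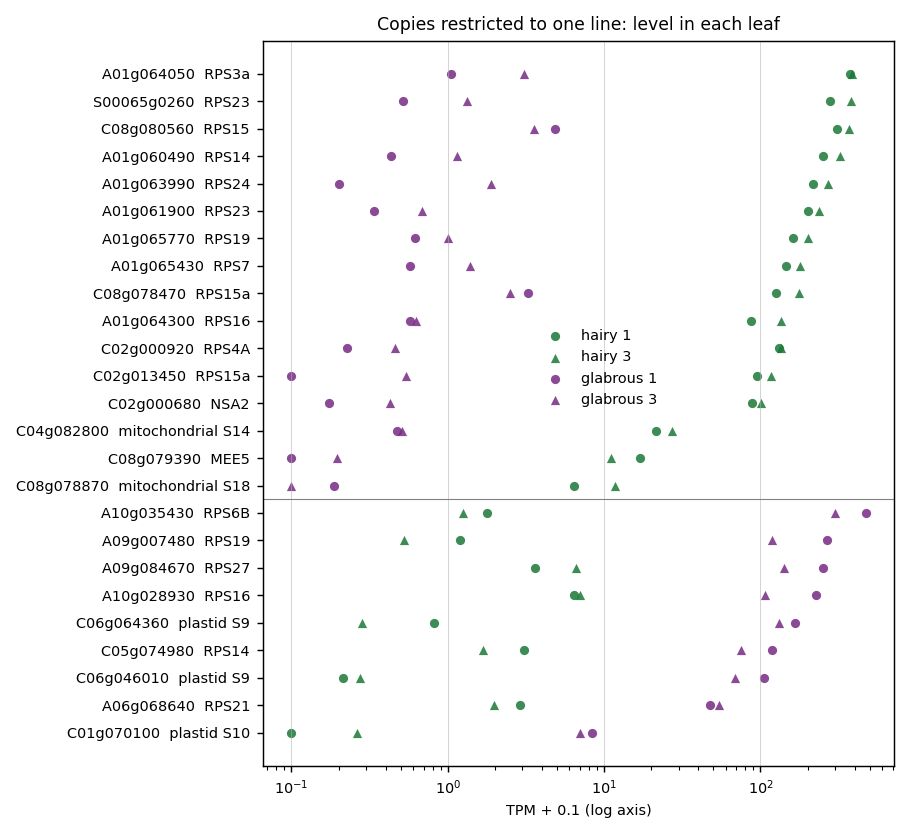
Level in TPM + 0.1 on a log axis in each of the 4 leaves for the 25 restricted copies; circles are replicate 1, triangles replicate 3, green hairy and purple glabrous, and the start and end of the identifiers are left off. The 16 copies above the line are restricted to the hairy leaves and the 9 below it to the glabrous leaves; no copy's lines overlap.

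Of the 16 copies restricted to the hairy line, 12 encode cytosolic ribosomal proteins. The RPS15 copy on C08 (BnaC08g080560.4DH; RPS15 sits near the decoding centre of the subunit) had 310 and 370 TPM in the hairy leaves, against 4.79 and 3.45 TPM in the glabrous leaves. The RPS4A copy on C02 (BnaC02g000920.4DH) had 131 and 135 TPM in hairy leaves, against 0.128 and 0.357 TPM in glabrous leaves. These were copies at full level in one line and at a trace in the other. RPS15a had a pair of them, BnaC02g013450.4DH with 95.03 and 116 TPM in hairy leaves against 0 and 0.438 TPM in glabrous leaves, and BnaC08g078470.4DH with 126 and 176 TPM against 3.17 and 2.41 TPM. RPS23, a protein of the decoding site, also had a pair: BnaA01g061900.4DH had 203 and 235 TPM in hairy leaves against 0.236 and 0.588 TPM in glabrous leaves, and BnaS00065g0260.4DH, on an unplaced sequence, had 278 and 380 TPM against 0.417 and 1.23 TPM.

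A run on chromosome A01 held 7 of the 16. Order here is that of the identifiers. Between BnaA01g060490.4DH and BnaA01g065770.4DH lie 251 genes that passed, and all 7 small-subunit copies among them were restricted to the hairy line. The stretch as a whole had many such genes: 112 of the 251 (44.62%) met the same rule, and 64.0% of those that averaged 5 TPM or more in hairy leaves. In identifier order they were RPS14, RPS23, RPS24, RPS3a, RPS16, RPS7 and RPS19. The RPS3a copy (BnaA01g064050.4DH; RPS3a lies at the exit side of the subunit) was the highest, with 376 and 385 TPM in hairy leaves and 0.942 and 2.96 TPM in glabrous leaves. The RPS14 copy (BnaA01g060490.4DH) had 250 and 323 TPM against 0.333 and 1.05 TPM, and the RPS24 copy (BnaA01g063990.4DH) had 218 and 269 TPM against 0.101 and 1.78 TPM. The other 11 members on A01 were not called and not restricted. A second run lay on C08, where all 4 members from BnaC08g078470.4DH to BnaC08g080560.4DH were restricted to the hairy line: RPS15a, mitochondrial S18, MEE5 and RPS15. There, 46 of all 79 genes (58.23%) were restricted to the hairy line. C02 had 3 more (RPS4A, NSA2 and RPS15a), and C04 and an unplaced sequence had 1 each.

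The 9 copies restricted to the glabrous line were spread over A06, A09, A10, C01, C05 and C06, with at most 2 on a chromosome. The highest was an RPS6B copy on A10 (BnaA10g035430.4DH), with 1.68 and 1.15 TPM in the hairy leaves, against 471 and 299 TPM in the glabrous leaves. An RPS19 copy on A09 (BnaA09g007480.4DH) had 1.095 and 0.426 TPM in hairy leaves, against 264 and 118 TPM in glabrous leaves. On A09 too, an RPS27 copy (BnaA09g084670.4DH; RPS27 is a zinc finger protein) had 3.49 and 6.52 TPM in hairy leaves, against 252 and 142 TPM in glabrous leaves. The remaining cytosolic ones were RPS16 on A10 (BnaA10g028930.4DH), RPS14 on C05 (BnaC05g074980.4DH) and RPS21 on A06 (BnaA06g068640.4DH), with 1.58 to 6.87 TPM in hairy leaves and 47.5 to 226 TPM in glabrous leaves.

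All 3 restricted plastid copies were restricted to the glabrous line. Plastid S9 had a pair of them, on C06. BnaC06g046010.4DH had 0.113 and 0.176 TPM in the hairy leaves and 105 and 68.9 TPM in the glabrous leaves, and BnaC06g064360.4DH had 0.713 and 0.182 TPM against 165 and 131 TPM. C06 held 5 members in all, and of the 556 genes between this pair 51.8% were restricted to the glabrous line. The plastid S10 copy on C01 (BnaC01g070100.4DH) had 0 and 0.164 TPM in hairy leaves and 8.29 and 6.89 TPM in glabrous leaves. Outside the plastid, the mitochondrial S14 copy on C04 (BnaC04g082800.4DH) had 21.3 and 27.1 TPM in hairy leaves, against 0.373 and 0.410 TPM in glabrous leaves. The NSA2 copy on C02 (BnaC02g000680.4DH; NSA2 acts in ribosome assembly in the nucleolus) had 88.7 and 100.5 TPM against 0.0749 and 0.330 TPM.

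Sister-copy compensation was examined through each copy's share of its code's TPM within a leaf, a quantity that does not depend on how high ribosomal transcripts stand in that leaf as a whole. For each restricted copy the sister with the largest opposite change in share, among those still available, was taken as its partner. Restricted copies could not be partners, and no sister served more than 1 copy. Where a code had more than 1 restricted copy, the one with the larger change in share chose first. In RPS15a the A02 sister BnaA02g011220.4DH thus went to the C08 copy, and the C02 copy was given the C03 sister BnaC03g014430.4DH. Shares in a leaf add up to 100%, so some sister must move the other way, and the choice of the partner favours a large change; the values describe and test nothing. The partner's gain came to a median of 95.54% of the restricted copy's share (36.7% to 153.3% over the 25). Spreading that share over the sisters by their level would have given the partner a median of 14.26%. In 24 of the 25 pairs the partner's shares did not overlap between the lines. Reads of near-identical sisters may be placed on either copy here as well. Their part in the partner's gain was not tested.

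For RPS15, the C08 copy held 14.2% and 14.1% of the code's TPM in the hairy leaves and 0.171% and 0.214% in the glabrous leaves. Its partner on A09 (BnaA09g100080.4DH) held 17% and 18.8% in hairy leaves and 35.2% and 32.4% in glabrous leaves. For RPS4A, the C02 copy held 8.71% and 8.69% in hairy leaves, and its A02 partner (BnaA02g001840.4DH) had 10.9% and 10.5% there against 19.3% and 19.3% in glabrous leaves. In both codes the partner's extra share in the glabrous leaves was close to, or above, the share that the restricted copy held in the hairy ones. NSA2 was the plainest case, since its C02 and A02 copies make up most of the code. The C02 copy held 38.8% and 40.5% in hairy leaves, and the A02 partner (BnaA02g001600.4DH) 46.3% and 44.9% in hairy leaves against 83.5% and 85.5% in glabrous leaves.

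The same held in the other direction. Plastid S9 has 4 sisters. The C06 copies held at most 0.227% of the code in the hairy leaves, against 20.5% and 18.8%, and 32.3% and 35.9%, in the glabrous leaves. In the hairy leaves the A07 partners BnaA07g035750.4DH and BnaA07g047380.4DH held nearly all of the code, with 45.3% and 42.9%, and 54.5% and 57.0%, against 20.6% and 20.5%, and 26.6% and 24.8%, in the glabrous leaves. Plastid S9 transcripts thus came almost wholly from the A subgenome in hairy leaves and from both subgenomes in glabrous leaves. The RPS19 copy on A09 held 0.256% and 0.0789% of its code (AT5G61170) in hairy leaves and 34.0% and 37.7% in glabrous leaves, and its C09 partner (BnaC09g008550.4DH) held 75.9% and 77.0% in hairy leaves against 36.8% and 39.3% in glabrous leaves.

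**Figure D2:**
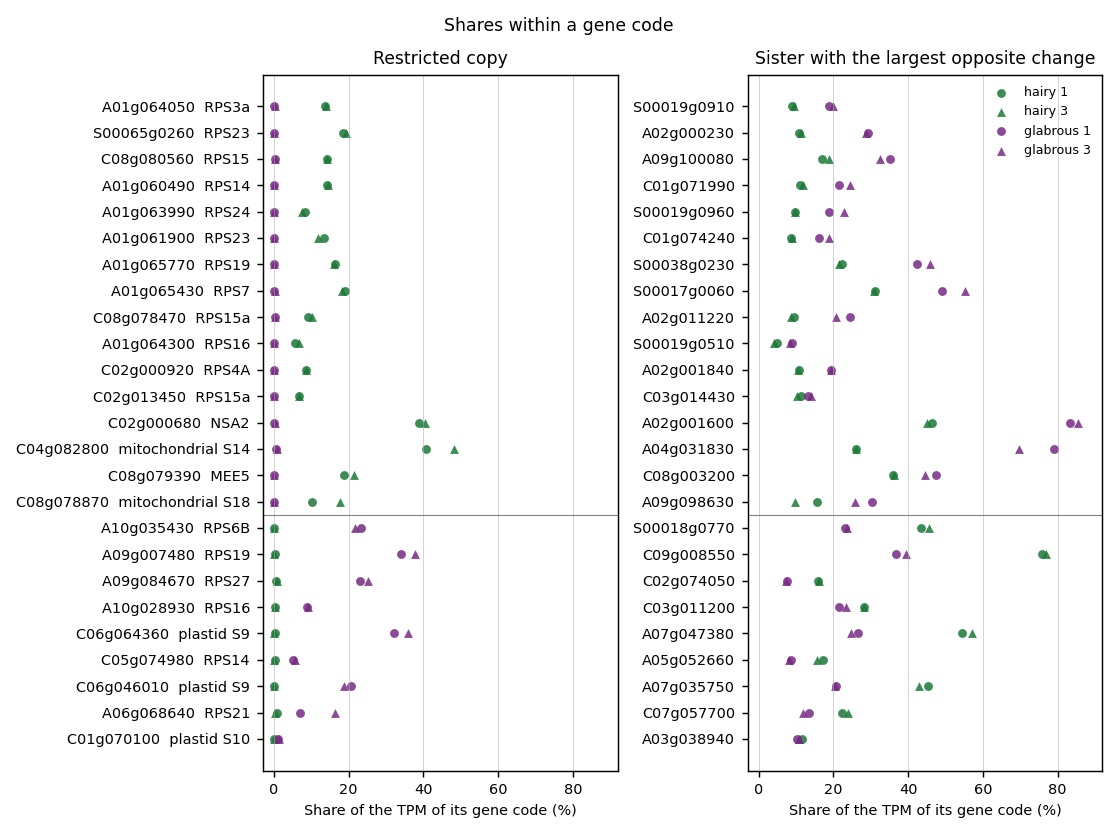
Share of its gene code's TPM, in percent, held by each of the 25 restricted copies (left) and by its partner (right) in each leaf; rows match across the panels, circles are replicate 1, triangles replicate 3, green hairy and purple glabrous. On the right the lines stand in the opposite order to the left, which follows from how partners were chosen; they overlap there in 1 row. Leaves of a line are widest apart on the left for RPS21 on A06, with 6.85% and 16.4% in glabrous leaves.

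The partners' own levels were compared as well. Differences on the log2(TPM + 1) scale were taken as the line where the restricted copy was low minus the other line. The median of the partners was 0.81 (-0.33 to 1.81, with 24 of 25 above 0), and their other sisters stood at a median of -0.09. Because partners were chosen by their shares in these same leaves, the choice favours this direction and the gap to the other sisters. These levels are therefore a description and no separate check. Only the partner of mitochondrial S14, on A04 (BnaA04g031830.4DH), was itself called, with 13.7 and 14.5 TPM in hairy leaves and 66.9 and 40.1 TPM in glabrous leaves. The exception to the direction was the A03 partner of plastid S10 (BnaA03g038940.4DH), with 59.6 and 55.5 TPM in hairy leaves and 89.05 and 59.4 TPM in glabrous leaves. Some partners above 0 hardly differed and overlapped between the lines. For MEE5 (BnaC08g003200.4DH) the log2 change, hairy minus glabrous, was -0.0029. For the C02 copy of RPS15a (BnaC03g014430.4DH) it was -0.045. The number above 0 was 24 under the other scalings and 22 to 23 when a leaf was left out.

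For the 313 uncalled copies that have a sister, the share within the code differed by a median of 1.17 percentage points between the leaves of a line (at most 25.41) and by 1.74 points between the lines. For restricted copies these medians were 0.178 and 13.95 points, a contrast that their rule fixes, and leaves of a line differed by up to 9.50 points.

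At the level of single copies, limma on log2(TPM + 1), called at a Benjamini-Hochberg adjusted p under 0.05 over all genes, gave 26 higher and 18 lower copies in the hairy line, 12.12% of the 363. Over all 44247 genes, 9.72% were called (5.24% higher and 4.48% lower). As the members were chosen on these levels, this is a description. By compartment, 18 cytosolic copies were higher and 11 lower, 0 plastid copies were higher and 5 lower, and 4 mitochondrial copies were higher and 1 lower. Among the other proteins, which are not ribosomal, 4 copies were higher and 1 lower. Without them 39 of 322 copies were called (12.11%). All 25 restricted copies were among the 44, and the other 19 included the RPS16 and RPS26 copies seen in one line only.

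RPS6B (AT5G10360) had 3 called sisters, as did RPS16. Besides the A10 copy, seen in glabrous leaves, the A02 sister BnaA02g003230.4DH had 25.1 and 30.7 TPM in the hairy leaves against 205 and 145 TPM in the glabrous leaves. The C02 sister BnaC02g002270.4DH went the other way, with 278 and 322 TPM against 119 and 73.1 TPM. The partner of the A10 copy, on an unplaced sequence (BnaS00018g0770.4DH), had 830 and 1041 TPM in hairy leaves and 464 and 326 TPM in glabrous leaves, and did not pass. The A03 and C03 sisters differed by 0.36 and 0.40. Summed over all sisters, RPS6B was 1915 and 2286 TPM in hairy leaves and 2020 and 1382 TPM in glabrous leaves, and the lines overlapped.

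RPS24, RPS3a and RPS16, neighbours in the A01 run, were also near each other on C05, where RPS24 (BnaC05g081360.4DH) had 353 and 541 TPM in the hairy leaves against 129 and 62.8 TPM in the glabrous leaves. RPS3a (BnaC05g081420.4DH) had 277 and 274 TPM against 82.6 and 44.5 TPM. Both were called, as was mitochondrial S2 (BnaC05g082480.4DH), with 24.9 and 33.02 TPM against 8.31 and 5.23 TPM. RPS16 (BnaC05g081910.4DH), with 28.1 and 58.5 TPM in hairy leaves and 31.35 and 12.2 TPM in glabrous leaves, overlapped between the lines and was not called (1.01, limma adjusted p = 0.334). The A05 sisters of the called copies leaned to the glabrous line without passing: RPS24 (BnaA05g057670.4DH) by -0.73, RPS3a (BnaA05g057730.4DH) by -0.93 and mitochondrial S2 (BnaA05g058610.4DH) by -1.14. On A08, the neighbours LOS1 (BnaA08g032420.4DH) and eEF1B-delta1 (BnaA08g032460.4DH) were both higher in the hairy line, LOS1 with 146 and 96.8 TPM against 40.3 and 34.0 TPM and eEF1B-delta1 with 165 and 211 TPM against 42.8 and 18.97 TPM.

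Several abundant cytosolic copies were also called without being restricted. The C09 copy of RPS4 (BnaC09g066486.4DH) had 687 and 733 TPM in hairy leaves, against 160 and 108 TPM in glabrous leaves. It led its code in the hairy line, with a mean share of 31.9%, and held 8.49% in the glabrous line. An RPS3B copy (BnaA03g018180.4DH; RPS3 lies where the messenger RNA enters the subunit) had 44.8 and 45.2 TPM in hairy leaves and 256 and 163 TPM in glabrous leaves. Among plastid proteins, S6 showed a switch within A09: BnaA09g015110.4DH was called, with 40.04 and 51.9 TPM in hairy leaves and 236 and 118 TPM in glabrous leaves, and its sister BnaA09g015390.4DH had 108 and 136 TPM against 58.7 and 40.5 TPM (limma adjusted p = 0.0586). Plastid S16-2 (BnaA02g013390.4DH) had 4.38 and 8.93 TPM against 80.5 and 42.9 TPM.

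The sums over all copies of a code, which use no filter on single copies, give the level of each Arabidopsis gene as a whole. None of the 74 sums was called by limma, and 1 had an unadjusted p under 0.05; over all 15764 codes, 2.1% were called. The log2 changes ran from -1.09 to 0.53 and 69 of 74 lay within 0.5 of 0. In the 20 codes with a restricted copy, whose restricted copies lay between -7.29 and 7.52, the sums lay between -0.41 and 0.34. With 2 leaves per line and standard errors of 0.35 to 0.66 on these sums, changes near 1 on the log2 scale were mostly not detectable.

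**Figure D3:**
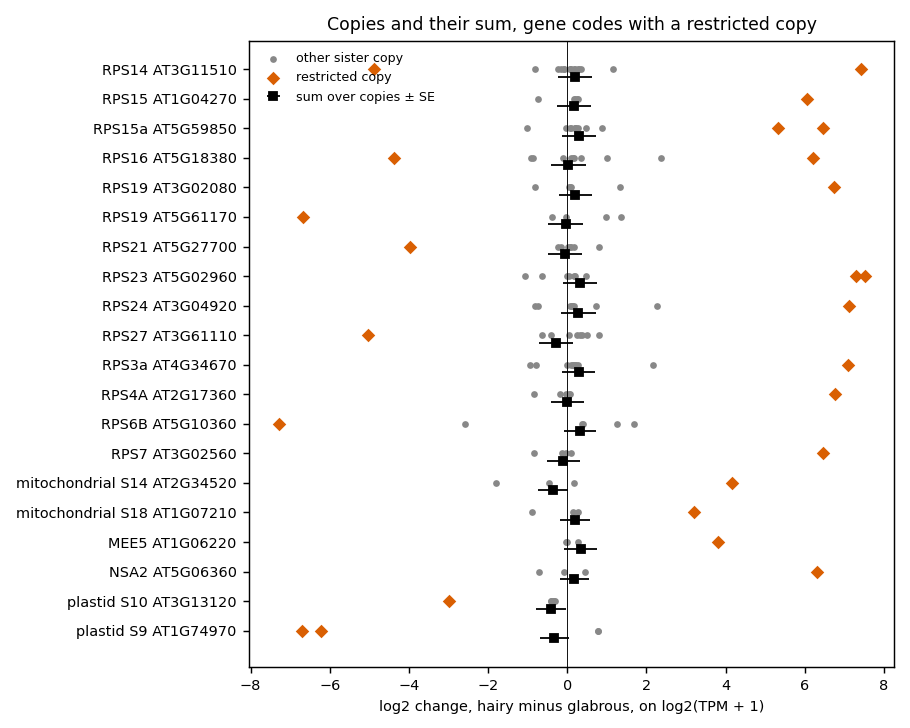
log2 change, hairy minus glabrous on log2(TPM + 1), for each passing copy of the 20 codes with a restricted copy; orange diamonds are restricted copies, grey points their sisters, and black squares the sum over all copies with its standard error. Restricted copies lie between -7.29 and 7.52 and the sums between -0.41 and 0.34.

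RPS24, RPS3a, RPS9 and RPS15 were among the highest sums. RPS24 (AT3G04920) had 2587 and 3617 TPM in the hairy leaves against 3321 and 1910 TPM in the glabrous leaves (log2 change 0.28, SE 0.44). RPS3a (AT4G34670) had 2740 and 2763 TPM in hairy leaves against 2758 and 1847 TPM in glabrous leaves. In both the hairy leaves lay within or close to the span of the glabrous leaves. The log2 change of RPS9 (AT5G15200) was 0.01 and that of RPS15 (AT1G04270) 0.18.

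The sum farthest below 0 was that of RPS20 (AT3G47370; RPS20 is a protein of the subunit head), with 157 and 218 TPM in the hairy leaves against 585 and 265 TPM in the glabrous leaves (-1.09, SE 0.42, limma adjusted p = 0.361). Its leaves did not overlap between the lines. When a leaf was left out the change was -1.65 without glabrous 3 (limma adjusted p = 4.87e-04) and -0.52 without glabrous 1 (limma adjusted p = 0.728). In these fits the lone glabrous leaf is assumed to vary like the hairy leaves. A second RPS20 code, AT5G62300, had 615 and 862 TPM in hairy leaves and 968 and 477 TPM in glabrous leaves (0.10). eEF1B-beta1 (AT5G12110) had 20.6 and 17.5 TPM in hairy leaves against 31.8 and 39.2 TPM in glabrous leaves (-0.86, limma adjusted p = 0.689), and the sums of plastid S16-2 and S13 stood at -0.52 and -0.45.

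At the other end stood RPS4 (AT5G07090), with 2141 and 2317 TPM in hairy leaves against 1939 and 1232 TPM in glabrous leaves (0.53, SE 0.42, limma adjusted p = 1.0). Its C09 copy described above had a log2 change of 2.43. Next were eEF1B-beta2 (AT5G19510) at 0.47, RPS3a (AT3G04840) at 0.42 with under 6 TPM in every leaf, eEF1B-delta1 (AT1G30230) at 0.40 and mitochondrial S13 (AT1G77750) at 0.36.

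How far copy differences cancel within a code was measured as 1 minus the size of the difference of the sums over the sum of the sizes of the copies' differences, in TPM. The median over 68 codes with at least 2 copies was 57.58%, against 18.43% over all such codes of the table. These sets were not matched for the number or level of copies, on which the share may depend. When a leaf was left out the median was 15.56% to 51.11%, against 3.724% to 9.657% over all codes with the same leaf left out. In the 20 codes with a restricted copy the median was 74.1%, and 31.54% without glabrous 1 (62.74% to 71.27% without any other leaf). No median for codes with a restricted copy was computed over the whole table. Among these 20 codes, over all leaves, the share was highest for NSA2 (86.09%), RPS16 (85.94%) and RPS19 (AT5G61170, 84.72%). It was lowest for MEE5 and plastid S10 (both 0%) and RPS27 (55.15%). A value of 0% means that the line means of all copies of the code differed in the same direction in TPM.

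Sums of the plastid proteins leaned one way. All 12 lay below 0, with a median of -0.39 (-1.05 to -0.22), and none was called; the median over all codes was 0.02. Their total was 3548 and 4233 TPM in the hairy leaves, against 6304 and 4057 TPM in the glabrous leaves (two-sided exact permutation p = 0.667, where 0.333 is the smallest that 2 against 2 leaves allow). The lines thus overlapped, through glabrous 3. All 12 stayed below 0 under both other scalings; without glabrous 1, 9 did, with a median of -0.09. The 4 tested markers of green leaf tissue, which include the light-harvesting genes LHCB1.1 and LHCA1, had a median of -0.88 and none was called. The summed level of the 5 on that list was 2765 and 3385 TPM in hairy leaves and 4614 and 6747 TPM in glabrous leaves; their part in the plastid values was not tested.

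Taken over all 363 copies, other proteins included, the members held 5.01% and 6.07% of the summed TPM in the hairy leaves. In the glabrous leaves they held 6.87% and 3.92%. In TPM these totals were 48200 and 57980 in the hairy leaves, against 65550 and 37490 in the glabrous leaves. The hairy leaves lay between the glabrous ones, and the exact permutation test gave p = 1.0. The log2 ratio of the line means was 0.04, and without glabrous 1 it was 0.50. The cytosolic total was 40160 and 49030 TPM against 54720 and 29970 TPM, and the mitochondrial one 1032 and 1014 TPM against 1075 and 834 TPM. Copies of the other proteins, which are not ribosomal, summed to 3464 and 3705 TPM in hairy leaves against 3453 and 2625 TPM in glabrous leaves. Cytosolic copies of the A subgenome held 47.7% and 46.9% of the cytosolic total in hairy leaves and 50.2% and 50.3% in glabrous leaves, and those of the C subgenome 45.1% and 45.7% against 42.2% and 41.4%.

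**Figure D4:**
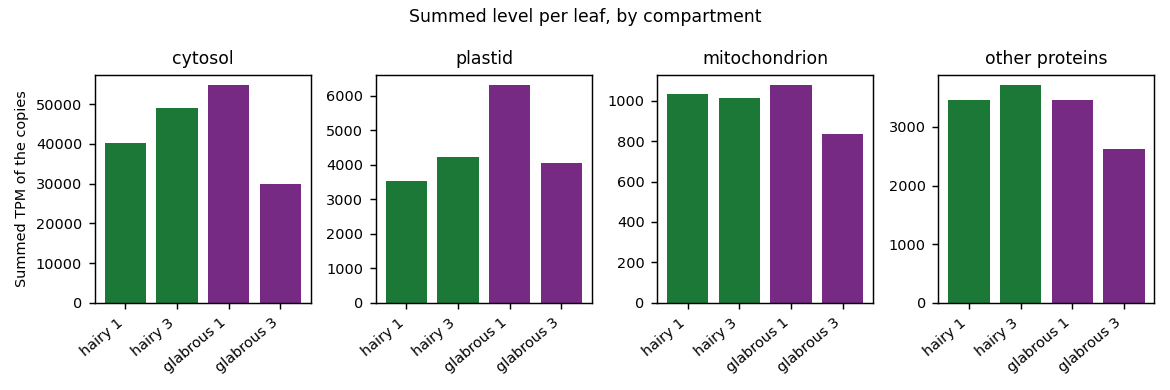
Summed TPM of the passing copies in each leaf, by compartment; each panel has its own axis from 0, green bars are hairy and purple bars glabrous leaves. In the cytosol panel the hairy leaves, 40160 and 49030 TPM, lie between the glabrous leaves, 54720 and 29970 TPM.

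These genes also shared a difference between leaves of a line. Glabrous 1 had 1.75 times the total of glabrous 3, and hairy 3 had 1.20 times that of hairy 1. Glabrous 1 was above glabrous 3 in 64 of the 74 sums and in 36 of the 38 cytosolic ones, whereas over all codes it was in 24.54%. Hairy 3 was above hairy 1 in 56 of 74, against 28.06% over all codes. With TMM-like scaling, which aligns the bulk of genes between leaves, the counts were 68 and 65 of 74, against 43.8% and 48.1% over all codes. Without that scaling, glabrous 1 was above glabrous 3 in 7 of the 11 sums of other proteins. It was also the higher in 11 of 12 plastid and 10 of 13 mitochondrial sums. Elongation factor eEF2 (LOS1) was not among the 7. Its unscaled sum was 989 and 685 TPM in hairy leaves and 852 and 890 TPM in glabrous leaves. The sum of eEF1B-beta2 was among the 7, with 1406 and 842.5 TPM in glabrous leaves. The summed level of 4 dividing-cell markers was 819 and 680 TPM in hairy leaves and 819 and 682 TPM in glabrous leaves, and its part in the leaf pattern was not tested.

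**Figure D5:**
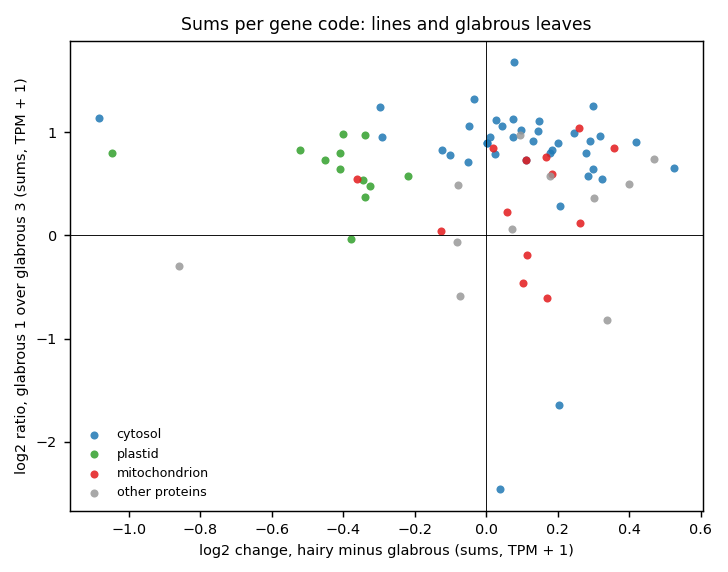
Each point is the sum of a gene code; the x axis is the log2 change, hairy minus glabrous, and the y axis the log2 ratio of glabrous 1 over glabrous 3, both on TPM + 1, coloured by compartment. Plastid points lie left of 0 on the x axis, and 64 of the 74 sums, 36 of 38 in the cytosol, have glabrous 1 above glabrous 3.

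Genes that act on the small subunit were set beside its proteins. Of 6 tested genes of TOR and S6 kinase signalling, 0 were called. S6K2 (AT3G08720), a kinase of RPS6, had 264 and 184 TPM in the hairy leaves against 47.8 and 124 TPM in the glabrous leaves (log2 change 1.503, SE 0.43, limma adjusted p = 0.116), and its leaves did not overlap. Leaving out glabrous 3, the glabrous leaf nearer to the hairy ones, gave a change of 2.18 (limma adjusted p = 2.30e-06), and leaving out glabrous 1 gave 0.82 (limma adjusted p = 0.371), each with a lone glabrous leaf assumed to vary like the hairy ones. S6K1 (AT3G08730), its close relative, had 49.3 and 30.1 TPM against 53.4 and 63.3 TPM (-0.58). The kinase TOR had 29.1 and 9.34 TPM in hairy leaves and 9.65 and 31.3 TPM in glabrous leaves, its partner RAPTOR1B 34.4 and 12.5 TPM against 11.2 and 27.3 TPM, and the same complex's LST8-1 44.2 and 36.1 TPM against 49.0 and 56.8 TPM. TAP46, a phosphatase regulator downstream of TOR, had 40.2 and 21.2 TPM against 20.3 and 43.2 TPM. In all 6 tested signalling genes glabrous 3 was above glabrous 1, as in most codes of the table, where glabrous 1 was the higher in 24.54%. RAPTOR1A (AT5G01770) has no value here.

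RACK1, a scaffold protein that sits on the head of the 40S subunit, had 3 tested genes and none called. RACK1A had 771 and 721 TPM in hairy leaves against 693 and 566 TPM in glabrous leaves (0.25), RACK1B 29.5 and 21.5 TPM against 23.5 and 14.5 TPM (0.43), and RACK1C 489 and 508 TPM against 630 and 425 TPM (-0.05). None of 14 assembly factors of the 40S subunit was called, with a median of 0.12 (-0.11 to 0.47), and none of 6 tested core proteins of nucleolar snoRNPs, with a median of 0.20 (-0.07 to 0.38). Marker genes of the shoot meristem (STM, WUS and KNAT1) summed to 0 and 0.379 TPM in hairy leaves and 0.0517 and 0 TPM in glabrous leaves. The flower markers summed to 4.99 and 3.86 TPM against 4.76 and 15.7 TPM. GL2, an Arabidopsis gene of trichome outgrowth, had 3.52 and 3.99 TPM in hairy leaves and 0.152 and 1.16 TPM in glabrous leaves.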

How the data were processed

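The deposited table gives TPM per transcript model, computed by the authors. The submitters' processing notes name cutadapt 1.9. Aligner, build and annotation: not given in the sources used here. Depth per leaf is unknown, so the precision is that of 2 leaves per line; columns summed to 954250 to 962645 TPM. Replicate 2 leaves were not analysed here. Where nothing says that leaves came from separate sowings, p-values measure only the spread between these leaves.

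TPM were summed per gene, and over all copies per Arabidopsis code. Copies and sums were fitted in limma 3.58.1 (R 4.3.3) on log2(TPM + 1), hairy minus glabrous, with variance trend and robust shrinkage, over all genes with at least 1 TPM in 2 leaves, and tested on simulated data. Also in the table, and not used, are the authors' line means in TPM, the larger of these means (a signal on the TPM scale), a signed fold change, a log2 fold change and p-values, all computed by the authors with a test that is not stated. Python 3.11.15 with pandas 2.3.3 and scipy 1.17.1 was used.

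Members, gene lists and roles were chosen with earlier results of these data known. Genes were named by rule: one-line copies and sisters, the 5 largest sum changes each way, the 5 highest sums, the TOR, S6 kinase and RACK1 genes, and the codes with the most and least cancelling. Restricted copies, partners and other called copies were picked with their values in view. The alternatives tried were other scalings, filters, pseudocounts, variance priors, limits, a replicate block and each leaf left out. Same-numbered leaves deviated in opposite directions (r = -0.407 across genes), so numbers were not taken as pairs. Some genes that this rule names are not reported here. No sequences are shown.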

Additional observations from a re-analysis of the deposited data

How the results depend on the processing

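None of the 74 sums was called under the other scalings, filters, pseudocounts and variance priors tried, or with only passing copies summed; leaving out a leaf gave 0 to 1 (RPS20, without glabrous 3). The labels do not say whether leaves with the same replicate number form pairs. With the replicate number as a block 0 sums, 24 higher and 16 lower copies were called. With crossed pairing, chosen after seeing the data, 2 sums (RPS20 and eEF1B-beta1), 35 higher and 22 lower copies were called. Crossed pairing also called 1 other pathway gene (S6K2). Leaving out a leaf gave 16 to 27 higher and 9 to 29 lower copies, 0 to 1 other pathway genes (S6K2), 4 to 8 copies seen in one line only, 15.56% to 51.11% cancelling and -0.30 to 0.50 for the log2 ratio of totals. Copies seen in one line only were 2 with 0 as the lower limit, 12 with 0.5 TPM and 8 transcript models. Restricted copies were 21 to 25 under all limits, leaves and scalings tried. Named sums that changed sign, none of them called, did so when a leaf was left out: the log2 change ranged over -0.063 to 0.78 for mitochondrial S13, -0.032 to 0.87 for RPS3a (AT3G04840), -0.12 to 0.68 for RPS24, -0.0037 to 0.57 for RPS3a (AT4G34670), -0.47 to 0.49 for RPS9 (-0.044 with TMM-like scaling), -0.22 to 0.58 for RPS15, -0.87 to 0.73 for TOR, -0.46 to 0.93 for RAPTOR1B, -0.55 to 0.51 for TAP46 and -0.34 to 0.23 for RACK1C. The RPS16 copy on C09 lost its call without a hairy leaf and the RPS26 copy on C03 without either hairy leaf or glabrous 3. The cause of these changes was not tested.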
